A study of Danio rerio with 5 samples.

Results

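Cells of an epithelium are held together by tight junctions, adherens junctions and desmosomes, and neighbouring cells exchange small molecules through gap junctions. Claudins and occludin seal tight junctions, cadherins bridge cells at adherens junctions and are tied to actin through catenins, desmoplakin and plakoglobin tie desmosomes to keratin filaments, and connexins form gap junctions. Neurons use other members of the same families, among them N-cadherin, R-cadherin and the protocadherins, and glia that make myelin use claudins of their own. The genes of these families were collected by the start of their symbol in the array's annotation, with cldn5a and cdh5, which mark blood vessels, left out. This gave 67 genes on 82 probe sets, of 8793 named genes on 15502 probe sets in all.

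The arrays measured RNA of wild-type AB zebrafish, as whole larvae 7 days after fertilization. Protons (8 MeV/u, 7.5 Gy/min, where the gray is the unit of absorbed dose) had been given at 24 h to embryos drawn in groups of 60 from pooled clutches. The irradiated groups received 15 Gy (3 arrays) or 12 Gy (1 array), the control received none (1 array), and all larvae were then raised at 28.5 °C. Each array was hybridised with RNA pooled from 20 animals. The labels speak of biological replicates without saying that the 15 Gy pools were irradiated separately, so p-values measured only the spread between these pools, which may be technical. In RNA of whole larvae, fewer cells of a type and less RNA per cell cannot be told apart.

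By where each gene is known to act, 30 members were classed as epithelial and 15 as neural, a class that includes myelinating glia. Another 6 were classed as broadly used, 14 as other, and 2 shared only the start of their symbol. The classes were drawn from general knowledge of the genes, not from these arrays, but with earlier results of the series known. The label of the set fits its annotation except for those 2 genes, ctnnbl1, a gene of the splicing machinery, and ctnnbip1, whose product blocks β-catenin from its transcription partner. All values below are log2 intensities of a gene's brightest probe set, and each difference is on the log2 scale with its standard error (SE) from the limma model.

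Most epithelial members were higher in larvae irradiated with 15 Gy than in unirradiated larvae, and most neural members were lower. Of the 30 epithelial members, 24 lay above the control in every 15 Gy array, 2 lay below it and 4 had arrays on either side or level with it. Over all named genes, 41.0% lay above the control in each array and 36.5% below. The median difference of the epithelial members was 1.38, beside 0.01 over all named genes, and pool by pool it was 1.87, 0.89 and 1.38 in replicates 1, 2 and 3. At least 2-fold above the control in each array were 13 epithelial members, a position that 5.09% of all named genes held. Of the 15 neural members, 11 lay below the control in each array at 15 Gy, 2 above it and 2 on either side, with a median difference of −0.52 (−0.53, −0.45 and −0.55 pool by pool). At least 2-fold below in each array were cdh18a and pcdh10b, a position held by 2.49% of all named genes. Leaving out an array, which was added after seeing the data, can only keep or raise such a count. Without replicates 1, 2 and 3 in turn it was 2, 4 and 2, where 2.49%, 4.87% and 2.52% of all named genes were. Over all 67 members, 32 lay above the control and 24 below it in each array, 16 of them at least 2-fold above and 2 at least 2-fold below, with a median difference of 0.03.

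**Figure D1:**
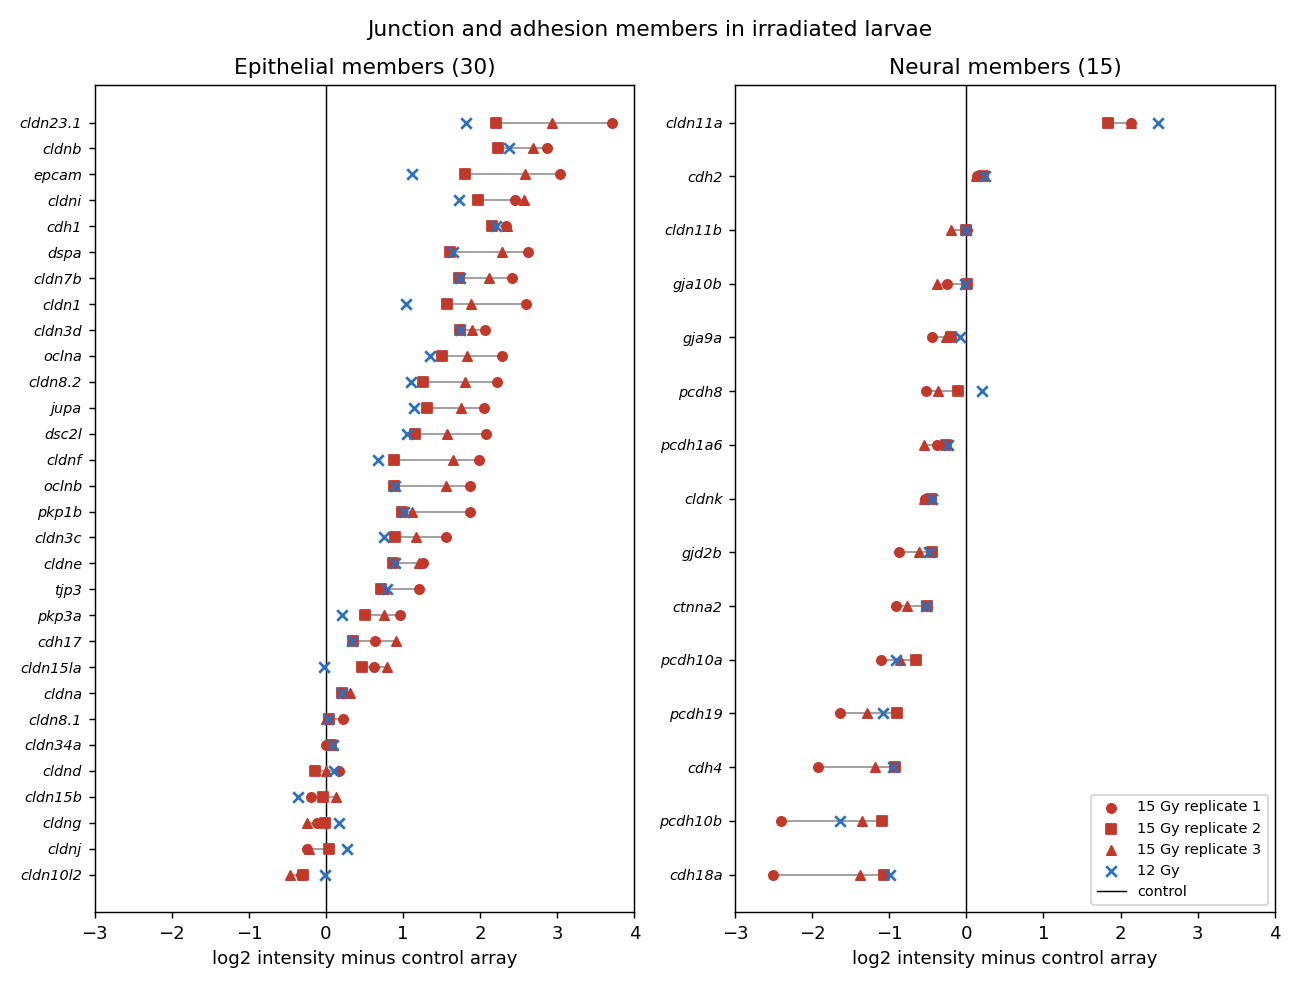
Log2 intensity of each epithelial member (left) and neural member (right) in the 15 Gy arrays (red) and the 12 Gy array (blue cross), minus the control array (line at 0). Grey lines span the 15 Gy arrays. The 24 epithelial members whose red points all lie right of the line fill most of the left panel, and the 11 neural members whose red points all lie left of it fill most of the right panel. There the red points of cldn11a, at the top, and of cdh2 all lie right of the line.

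No member passed the test of 15 Gy against control. With limma and Benjamini-Hochberg adjustment over all probe sets, 0 of 67 members reached an adjusted p of 0.05, as did 0% of all probe sets, and the smallest adjusted p among the members was 0.167. At an unadjusted p of 0.05 from the same model, 24 members were higher and 8 lower, where 17.4% and 10.4% of all named genes were. The control had no replicate, so the model took its spread from the 15 Gy arrays.

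Taking the 4 irradiated arrays as 1 group against the control, limma called 1 member, cdh1, beside 0.0387% of all probe sets. At an unadjusted p of 0.05 it gave 23 members higher and 11 lower, where 17.3% and 13.3% of all named genes were. The gene cdh1 encodes E-cadherin, the adhesion receptor of epithelial adherens junctions. Its log2 intensity was 8.08 without irradiation, 10.29 after 12 Gy and 10.41, 10.23 and 10.43 in replicates 1, 2 and 3 of the 15 Gy group. All irradiated arrays lay within a narrow band far above the control. At 15 Gy cdh1 averaged 10.35 ± 0.11 (SD, n = 3), which was 4.84-fold the control (difference 2.28, SE 0.12), and over the 4 irradiated arrays it rose by 2.26 (SE 0.12, limma adjusted p = 0.0395). That call was lost when any 15 Gy replicate was left out, with adjusted p = 0.0575, 0.14 and 0.264 without replicates 1, 2 and 3, and without the 12 Gy array (0.167), in a range of 0.0184 to 0.264 over all alternatives. The size of the difference stayed between 2.08 and 2.30 in every alternative run. The next smallest adjusted p in that fit belonged to cldn3d (0.0607), cldnb (0.0693) and cldn11a (0.0704), which were named after their values were seen.

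The catenins, which tie cadherins to actin, did not all differ in the same direction. For ctnna1, which encodes α-catenin, the log2 intensity was 7.33 without irradiation, 9.13 after 12 Gy and 9.63, 8.99 and 9.26 after 15 Gy. All irradiated arrays lay above the control and the 12 Gy value lay within the 15 Gy range, and at 15 Gy ctnna1 was 3.89-fold the control (difference 1.96, SE 0.30). Zebrafish carry a pair of β-catenin genes. Intensities of ctnnb2 were 10.21 without irradiation, 11.23 after 12 Gy and 11.53, 11.28 and 11.35 after 15 Gy, 2.26-fold higher at 15 Gy (difference 1.18, SE 0.13). By contrast ctnnb1 read 10.88 without irradiation, 10.68 after 12 Gy and 10.45, 10.70 and 10.85 after 15 Gy, a difference of −0.21 with an SE of 0.20. A dimmer ctnnb1 probe set differed by −0.02, with 15 Gy arrays on either side of the control. The difference between ctnnb2 and ctnnb1 was not tested. The p120 catenin gene ctnnd1, whose product steadies cadherins at the membrane, differed by 1.20 at 15 Gy with a wide SE of 0.48. The neural α-catenin gene ctnna2 lay lower in every irradiated array, with 7.13, 7.53 and 7.27 at 15 Gy against 8.05 in the control (difference −0.73, SE 0.20).

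**Figure D2:**
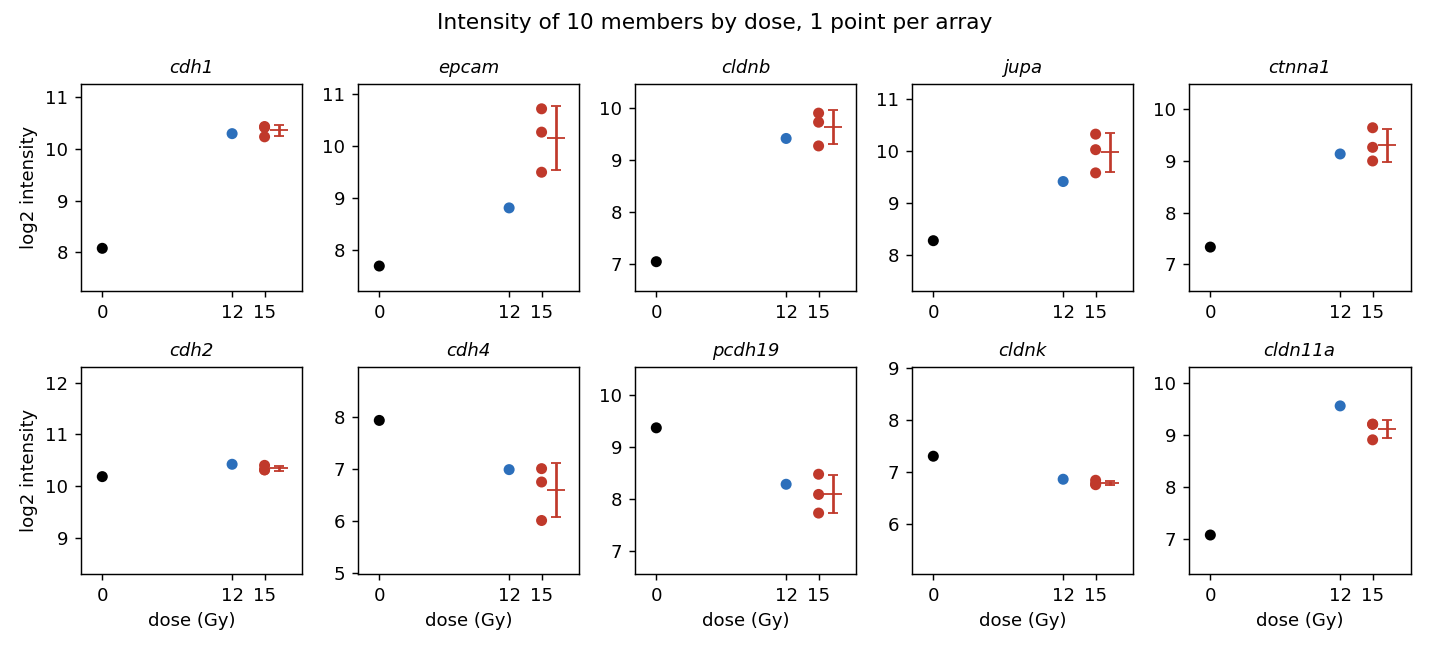
Log2 intensity of 10 members against dose in Gy, 1 point per array, with the mean and SD of the 3 arrays at 15 Gy as a bar beside them. Each vertical axis spans 4 log2 units. In cdh1 the irradiated points sit together near 10.3 above the control at 8.08, in epcam the 12 Gy point (8.81) lies between the control and the 15 Gy arrays, and cdh2 stays within 10.19 to 10.43.

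Among tight junction genes the claudins were the largest family, with 23 members, of which 19 were classed as epithelial. In 13 of those 19 all arrays at 15 Gy lay above the control, beside 41.0% of all named genes. In 7 of the 19 they did so by at least 2-fold, beside 5.09% of all named genes. The largest difference was in cldn23.1, at 9.61, 8.11 and 8.84 in the 15 Gy arrays against 5.91 in the control (7.70-fold higher, difference 2.95, SE 0.69). Its 3 pools spread widely, with an SD of 0.75, but none came near the control. Tighter values were seen for cldnb, a claudin of zebrafish epidermis and lateral line, which read 7.04 without irradiation, 9.41 after 12 Gy and 9.90, 9.27 and 9.73 after 15 Gy (6.04-fold higher at 15 Gy, difference 2.59, SE 0.31). The claudin gene cldni was 5.03-fold higher, cldn7b 4.23-fold, cldn1 4.04-fold, cldn3d 3.74-fold (its 12 Gy value equals that of 15 Gy replicate 2) and cldn8.2 3.39-fold, each with limma adjusted p between 0.167 and 0.17. These 7 claudins made up the 7 of the 19 past 2-fold in every array. Also above the control in each 15 Gy array were cldnf (1.51), cldn3c (1.21), cldne (1.11) and cldn15la (0.63), a claudin gene of the intestine, as were the dim cldna (0.24) and cldn8.1 (0.09).

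The other 6 epithelial claudins did not share this shift. The brightest of them, cldng, read 12.43, 12.53 and 12.29 at 15 Gy against 12.54 in the control (difference −0.12, SE 0.13). Its dimmer probe sets differed by −0.42, −0.12 and −0.32, the first and last with each 15 Gy array below the control. Differences of cldn34a (0.04), cldnd (0.01), cldn15b (−0.03) and cldnj (−0.14), a claudin gene of the ear, had arrays on either side of the control or level with it. In cldn10l2 each 15 Gy array lay below the control (difference −0.36, SE 0.10). Of the 19, cldna, cldn8.1 and cldn34a were below the lower quartile of every array, and at such dim intensities RMA values can compress a difference.

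Both occludin genes, which encode tight junction membrane proteins, were higher. Values of oclna were 9.58, 8.80 and 9.13 at 15 Gy against 7.30 in the control (3.67-fold, difference 1.88, SE 0.36), and those of the dimmer oclnb were 5.47, 4.48 and 5.16 against 3.60 (2.70-fold, difference 1.43, SE 0.47). The scaffold genes that anchor the junction to actin differed less, tjp3 by 0.89 (SE 0.26) and tjp2b by 0.68 (SE 0.20), with every 15 Gy array above the control in each. A dimmer tjp2b probe set differed by 0.12, with replicate 2 below the control.

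The adhesion molecule gene epcam, which marks epithelia, showed the widest step between the doses. It read 7.69 without irradiation, 8.81 after 12 Gy and 10.72, 9.49 and 10.27 after 15 Gy. The 15 Gy arrays lay above the 12 Gy array, and that in turn above the control. Relative to the control, epcam was 5.55-fold higher at 15 Gy (difference 2.47, SE 0.57) and 2.17-fold higher at 12 Gy. A second epcam probe set, dim in all arrays, differed by 0.43.

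All 5 epithelial desmosome genes lay above the control in each array at 15 Gy, beside 41.0% of all named genes. In 3 of the 5 each array did so by at least 2-fold, beside 5.09% of all named genes. For dspa, which encodes desmoplakin, the arrays read 8.38, 7.36 and 8.04 at 15 Gy against 5.75 in the control (4.51-fold, difference 2.17, SE 0.48). A dimmer dspa probe set did not show this, with a difference of −0.03. The plakoglobin gene jupa stood at 10.33, 9.58 and 10.03 at 15 Gy against 8.27 in the control (3.26-fold, difference 1.70, SE 0.35). The desmocollin gene dsc2l was 3.03-fold higher (difference 1.60, SE 0.43). Lower down came the plakophilin genes pkp1b (2.50-fold, difference 1.32, SE 0.44) and pkp3a (1.67-fold, difference 0.74, SE 0.22). The related pkp4, which is used broadly and also at adherens junctions, ran the other way, at 6.90, 7.23 and 7.04 against 7.55 (difference −0.49, SE 0.16).

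Among cadherins classed as neural, cdh4 (R-cadherin, of retina and brain) and cdh18a were lower and cdh2 was not. Intensities of cdh4 were 6.01, 7.01 and 6.75 at 15 Gy against 7.94 in the control (2.55-fold lower, difference −1.35, SE 0.48). For cdh18a they were 5.20, 6.65 and 6.33 at 15 Gy against 7.71 in the control (3.14-fold lower, difference −1.65, SE 0.70). The N-cadherin gene cdh2, which neural tissue shares with muscle and other mesodermal tissue, read 10.32, 10.41 and 10.32 at 15 Gy against 10.19 in the control (difference 0.16, SE 0.08), a sign that turned after cyclic loess normalization (−0.05). Outside the neural class, the intestine and kidney cadherin gene cdh17 differed by 0.63 (SE 0.27), the T-cadherin gene cdh13 by −1.19 (SE 0.49), the mesenchymal cdh11 by −0.11 (SE 0.16) and the muscle cadherin gene cdh15, dim in every array, by 0.17 (SE 0.26).

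All 7 protocadherin genes lay below the control in each array at 15 Gy, as did 36.5% of all named genes, with a median difference of −0.87. Protocadherins are cadherin relatives used mostly by neurons for contacts between axons, dendrites and synapses. The brightest, pcdh19, read 9.37 without irradiation, 8.28 after 12 Gy and 7.73, 8.48 and 8.09 after 15 Gy (2.42-fold lower at 15 Gy, difference −1.27, SE 0.35). Values of pcdh10b were 5.64, 6.95 and 6.70 at 15 Gy against 8.05 in the control (3.07-fold lower, difference −1.62, SE 0.64), and replicate 1 was by far the lowest. Smaller differences were seen for pcdh1b (−1.12), pcdh10a (−0.87), pcdh18a (−0.82), pcdh1a6 (−0.40) and pcdh8 (−0.33). Of these, pcdh1a6 was dim, below the lower quartile of every array. The other probe sets of pcdh10a differed by only −0.11 and −0.27, and both were dimmer.

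The claudins classed as neural divided. In cldnk, a claudin gene of zebrafish myelinating glia, the arrays read 6.76, 6.84 and 6.75 at 15 Gy against 7.30 in the control (difference −0.52, SE 0.08). In cldn11a they read 7.07 without irradiation, 9.56 after 12 Gy and 9.20, 8.90 and 9.21 after 15 Gy (4.10-fold higher at 15 Gy, difference 2.03, SE 0.17). This gene was classed as neural because claudin 11 is a myelin protein in mouse, and its values lay with those of the epithelial claudins. Its paralog cldn11b did not follow (difference −0.06, SE 0.12).

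Connexin genes differed little. Of 11, 0 lay above the control in each array at 15 Gy, 7 lay below it and 4 were on either side, where 41.0% of all named genes lay above and 36.5% below, and the median difference was −0.17. The largest was in gja1b, the zebrafish connexin 43 gene, at 8.91, 9.68 and 9.45 at 15 Gy against 10.04 in the control (1.62-fold lower, difference −0.69, SE 0.37). Next came gjd2b, a connexin gene of electrical synapses (−0.64, SE 0.21), gja9a (−0.30) and gjb1a (−0.26). The remaining 7, which include the lens connexin genes gja3 (−0.16) and gja8b (−0.03), ranged from −0.21 in gja10b to −0.03. Except for gja1b, connexins had intensities near or below the array medians of 5.95 to 6.03. The part of low intensity in their small differences was not tested. Of the members left, the claudin gene cldn12, classed as other, differed by 0.58 (SE 0.15), ctnnbip1 by −0.75 (SE 0.21) and ctnnbl1 by 0.03 (SE 0.07).

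The 12 Gy array showed the same 2 directions. It has no replicate, shares its control array with the comparison above and is therefore no independent evidence. Of 30 epithelial members, 14 were at least 2-fold above the control at 12 Gy, where 6.41% of all named genes were, and 0 were 2-fold below. In all, 27 of the 30 lay above the control (48.4% of all named genes) and 12 of 15 neural members below it (49.3%). The median difference was 0.90 in epithelial and −0.44 in neural members. All 4 irradiated arrays lay above the control in 23 of 30 epithelial members (35.8% of all named genes) and below it in 10 of 15 neural members (32.7%). The largest positive differences were in cldn11a (2.49, 5.61-fold), cldnb (2.37, 5.19-fold) and cdh1 (2.21, 4.63-fold), and the largest negative ones in pcdh10b (−1.64), pcdh19 (−1.09) and cdh18a, which read 6.72 at 12 Gy against 7.71 in the control. At least 2-fold below the control were pcdh10b and pcdh19, where 4.53% of all named genes were. With limma, 0 of 67 members reached an adjusted p of 0.05, as did 0% of all probe sets (smallest among members 0.203), and at an unadjusted p of 0.05 there were 9 higher and 3 lower, where 10.4% and 7.94% of named genes were.

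Between the doses, 14 of 30 epithelial members lay above the 12 Gy array in each of the 3 arrays at 15 Gy, where 31.3% of all named genes did, and 4 lay below it. Without replicates 1, 2 and 3 in turn, the count above was 14, 23 and 15, where 37.5%, 41.8% and 34.7% of all named genes were. Replicate 2 was nearly level with the 12 Gy array. The median difference between 15 and 12 Gy was 0.33 in epithelial members. The largest differences of 15 Gy from 12 Gy were in epcam (1.35, SE 0.57), cldn23.1 (1.13, SE 0.69) and cldn1 (0.98, SE 0.48). In the neural class 7 of 15 lay below the 12 Gy array in each 15 Gy array, beside 21.1% of all named genes, and 0 above, with a median of −0.19. Without replicates 1, 2 and 3 in turn, the count below was 7, 12 and 7, where 28.7%, 32.8% and 22.4% of all named genes were. By the brightest probe set of each gene, used also for the counts and tests that follow, the lowest of all members were cdh18a (−0.66), cdh13 (−0.59) and pcdh8 (−0.53). Of the dimmer cldng probe sets, the next in brightness differed more, by −0.69 and −0.83, with each 15 Gy array below the 12 Gy array. None passed limma (0 of 67, where 0.00645% of all probe sets did, smallest adjusted p 0.531). At an unadjusted p of 0.05 only cldn15la (0.65) and cldn10l2 (−0.35) differed, against 5.35% of named genes higher and 3.51% lower.

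In most members the classes also ordered the 15 Gy pools differently, a comparison that does not involve the control. Replicate 1 was the highest of the 3 pools in 20 of 30 epithelial members and replicate 2 the lowest in 24. In neural members replicate 2 was the highest in 13 of 15, and the lowest was replicate 1 in 9 and replicate 3 in 5. These orders were not counted over all named genes, so the counts cannot tell whether they are particular to the members. The widest spreads among the pools were in cdh18a (SD 0.76), cldn23.1 (0.75) and pcdh10b (0.70). As deviations from each gene's own mean over the 5 arrays, the epithelial median was −1.02 in the control, −0.02 after 12 Gy and 0.63, 0.03 and 0.42 in the 15 Gy replicates. The neural median was 0.40 in the control, 0.05 at 12 Gy and −0.37, 0.06 and −0.15 at 15 Gy. Over all named genes the median was −0.006 in the control, −0.011 at 12 Gy and 0.031, 0.009 and −0.003 at 15 Gy. As already counted for the 4 irradiated arrays, the control was the lowest array in 23 of 30 epithelial members and the highest in 10 of 15 neural members. All irradiated arrays lay above it in 35.8% and below it in 32.7% of all named genes. Unlike the order of the pools, these counts do involve the control. Replicate 2 stood almost where the 12 Gy array did, with epithelial medians of 0.89 and 0.90 above the control.

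**Figure D3:**
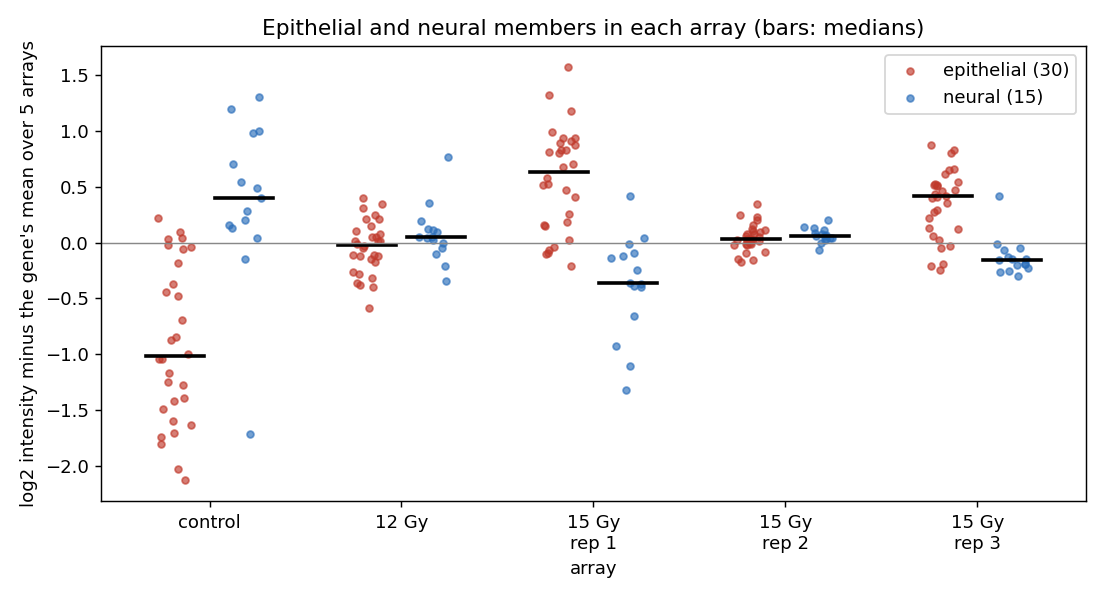
Log2 intensity of each epithelial (red) and neural (blue) member minus that gene's mean over the 5 arrays, by array, with class medians as bars. The epithelial median is lowest in the control (−1.02) and highest in 15 Gy replicate 1 (0.63), and the neural median runs the other way, from 0.40 to −0.37.

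Tissue markers and an RNA quality measure also varied among these arrays. The median over 8 neuron markers differed from the control by −2.89, −1.14 and −1.62 in 15 Gy replicates 1, 2 and 3, and their summed intensity was 16193 in the control, 6340 at 12 Gy and 2202, 7380 and 5074 at 15 Gy. The summed intensity of 5 photoreceptor markers was 31282 in the control, 2842 at 12 Gy and between 593 and 10613 at 15 Gy. For 6 epidermis markers the sum was 5813 in the control, 5791 at 12 Gy and 17453, 11195 and 14910 at 15 Gy. At 12 Gy the median epidermis marker differed from the control by 0.34. The bright keratin genes krt4 and krt5 read 10.57 and 9.97 at 12 Gy against 11.14 and 10.94 in the control, and the other 4 markers were higher at 12 Gy, among them krt8 (1.95) and anxa1a (1.57). Summed over 4 intestine markers, the intensity was 731 in the control, 894 at 12 Gy and 2644, 1727 and 2655 at 15 Gy. Of these, apoa1a was 4.49-fold higher at 15 Gy, and the other 3 had 15 Gy arrays on either side of the control. Of 3 markers of myelinating glia, mbpb was 2.29-fold higher and mbpa 2.63-fold lower at 15 Gy, while sox10 differed by 0.08. The summed intensity of 3 muscle markers was 23009 in the control, 31227 at 12 Gy and 24256 to 29242 at 15 Gy, and that of 3 liver markers was 703, 792 and 728 to 1167. Of the muscle markers, ckma (0.64) and tnnt3b (0.42) lay above the control in each 15 Gy array and mylpfa (−0.13) below it. Of the liver markers, tfa (0.66) and ambp (0.59) lay above it in each and fabp10a (−0.76) below. Actin control probe sets near the 5′ end of the transcript, set against those near its 3′ end, gave a ratio of 0.0171 without irradiation, 0.0354 after 12 Gy and 0.129, 0.0350 and 0.108 in the 15 Gy replicates. The same ratio for GAPDH varied far less, at 0.174 without irradiation, 0.177 after 12 Gy and 0.242, 0.189 and 0.228 in the 15 Gy replicates. Replicates 1 and 3 thus had the highest ratios and the highest epithelial medians, and the control the lowest of each. A low ratio is the poorer side of this quality measure. By both ratios the poorest array was therefore the control, to which most differences here refer. Replicate 2 and the 12 Gy array were nearly level in the actin ratio and in the epithelial median. The part of tissue makeup and of RNA quality in these results was not tested.

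Partners of the same structures outside the symbol rule were examined next. The epithelial list also holds regulators that are not themselves parts of junctions, among them tp63, grhl1, esrp1 and esrp2. Of 92 listed symbols of epithelial junction partners, older names included, 33 were measured, and 24 of these lay above the control in each 15 Gy array and 4 below, where 41.0% and 36.5% of all named genes did, with a median difference of 0.97. At least 2-fold above in each array were 10, where 5.09% of all named genes were. Without replicates 1, 2 and 3 in turn there were 10, 16 and 10, where 5.09%, 8.42% and 5.12% were. The largest differences were in the membrane protease inhibitor genes spint1b (2.52) and spint1a (2.49), the tricellular junction gene lsr (1.90) and the junctional adhesion molecule gene f11r.1 (1.90). Desmoglein, the desmosomal partner of desmocollin, was represented by dsg2.1 (1.59). The 4 below the control in each 15 Gy array were magi1b (−0.60), dlg1a (−0.46), arvcfb (−0.43) and jam2a (−0.25).

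Of 76 listed symbols of neural adhesion genes outside the rule, 35 were measured. Of these, 27 lay below the control in each 15 Gy array and 6 above, where 36.5% and 41.0% of all named genes did, with a median of −0.39. Some of the 27 hardly differed, such as tenm3 (−0.005). At least 2-fold below in each array were 2, nrxn1a and nptna, where 2.49% of all named genes were, and 1 was at least 2-fold above, thy1, where 5.09% were. The largest differences were in the neurexin gene nrxn1a (−1.86), nptna (−1.76) and the contactin gene cntn1b (−1.67), and upwards in thy1 (2.38). None of them passed limma at 15 Gy (0 of 33 and 0 of 35 with an adjusted p under 0.05), and at an unadjusted p of 0.05 the counts were 16 higher and 1 lower among the epithelial partners and 2 higher and 7 lower among the neural adhesion genes, where 17.4% of all named genes were higher and 10.4% lower.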

How the data were processed

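The deposited value of a probe set is an intensity that ran from 3.99 to 24171, so not a log value. RMA is named in the submitters' processing notes, with no version given in the sources used here. RMA ends in log2 values, so the authors seem to have undone the log, a reading from the range alone. Scanner files were not analysed here.

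Values were turned to log2 with no added constant, and 115 control probe sets were left out. Genes were named from the platform table (10795 probe sets with 1 symbol, 135 with several, 4572 not listed), and all 67 members matched by Entrez identifier. Where a gene had several probe sets, the brightest on average was used. Of the members, 12 had several probe sets and 7 had identical values (to 8 decimals) in at least 2 arrays.

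limma 3.58.1 (R 4.3.3) fitted 1 mean per group to all 5 arrays, two-sided, with Benjamini-Hochberg adjustment over 15502 probe sets. The spread rested on 2 residual degrees of freedom, both of the 15 Gy group, and a prior of 1.20. A further fit took the 4 irradiated arrays as 1 group, with 3 residual degrees of freedom from the spread within it across both doses. Fits were tested on simulated data. Figures used matplotlib 3.10.9. No batch was given in the labels. The number of arrays limits the precision.

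Members, classes and lists were chosen with earlier results of these data known. Named members were, per family, up to 5 with the largest difference each way among those with all 15 Gy arrays on the same side, the extremes of the other comparisons and of the spread, and a fixed list. Others are named to account for the whole set. Partner genes were the largest each way, with dsg2.1 named after its value was seen. Promoter and protein sequences were not used here. Alternatives covered normalization, dim probe sets, an added constant of 16, an intensity trend, averaged probe sets and each 15 Gy array left out.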

Additional observations from a re-analysis of the deposited data

How the results depend on the processing

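Class medians kept their sign in all 54 alternatives. The medians of 12 Gy against control cannot change when a 15 Gy replicate is left out, so such alternatives did not test them. A median counted as moved only if it changed by at least the SD of the medians of the 3 pools at 15 Gy against control. That SD was 0.49 for epithelial and 0.06 for neural members, so epithelial medians could shift further without being listed here. The neural median for 15 Gy against control (−0.52) became −0.58 after quantile normalization, −0.64 without the dimmest 30% of probe sets, −0.46 with log2(value + 16) and −0.42 with averaged probe sets. For 15 Gy against 12 Gy (−0.19) it was −0.12 with log2(value + 16) and ran from −0.28 to −0.11 with a 15 Gy replicate left out. The count of members called with the irradiated arrays as 1 group (1) became 8 after quantile normalization, 7 after cyclic loess and 3 without the dimmest 30% of probe sets, and 0 with log2(value + 16), with an intensity trend, without the 12 Gy array or without any 15 Gy replicate (lowest 0, highest 0). The 8 were cdh1, cldn11a, cldn3d, cldn7b, cldnb, cldni, ctnna1 and ctnnb2, while probe sets called numbered 420 after quantile normalization, 295 after cyclic loess and 84 without the dimmest 30%, against 6. The cause was not tested. In each of the other 3 comparisons the count of members called was 0 in every alternative run, although for 12 Gy against control 4 probe sets were called after quantile normalization and 2 after cyclic loess, against 0. Of 45 named members, 44 kept the sign of their difference at 15 Gy, and cdh2 turned to −0.047 after cyclic loess. Leaving out each 15 Gy replicate, added after seeing the data, gave 2 to 4 neural members at least 2-fold below the control, 14 to 23 epithelial members above and 7 to 12 neural members below the 12 Gy array, and 10 to 16 epithelial partners at least 2-fold above the control, with the highest of each without replicate 2. No paired analysis was possible because the groups share only the number of replicate 1.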
